A study of Homo sapiens with 10 samples.

Results

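The genes described here are 10 components and targets of the Hippo pathway, namely YAP1, WWTR1, TEAD1, TEAD4, LATS1, LATS2, AMOTL1, AMOTL2, ANKRD1 and AJUBA. They were taken by symbol from a table of 58302 genes, and each was listed once. RNA was sequenced from KYSE-410 and KYSE-30, established lines of human esophageal squamous cell carcinoma. The 4 groups were KYSE-410 with siSHIP2 (3 libraries), KYSE-410 with siCT (3), KYSE-30 with siSHIP2 (2) and KYSE-30 with siCT (2). All cells, controls included, carried a transfected small interfering RNA and were harvested 48 h later. The siRNA siSHIP2 is directed at INPPL1, which encodes the lipid phosphatase SHIP2, and siCT has no intended target. One siRNA sequence against INPPL1 is compared here, and another one, siSHIP2#2, was not analysed here. Each line is a single cancer line, and the labels number the replicates without saying that they were separate cultures. The p-values therefore rest on variation among these libraries alone, some or all of which could be technical.

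In the Hippo pathway, the kinases LATS1 and LATS2 phosphorylate the coactivators YAP (encoded by YAP1) and TAZ (encoded by WWTR1), which keeps them in the cytoplasm or marks them for degradation. Unphosphorylated YAP and TAZ enter the nucleus and bind TEAD transcription factors, which contact DNA. The angiomotin-like proteins AMOTL1 and AMOTL2 bind YAP at cell junctions, AJUBA is a LIM-domain protein that restrains LATS kinases, and ANKRD1 is a widely used transcriptional target of YAP. AMOTL2 and LATS2, both of which act against YAP, are also known as its targets. RNA levels do not show the phosphorylation or location of these proteins.

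TEAD factors recognise a short element, CATTCC on one strand and GGAATG on the other, and the sequences upstream of the members were searched for it on both strands. RefSeq windows (GRCh38.p14) held starts of 8 of the 10 members in 12 windows of 250 bases, and TEAD1 and TEAD4 were not matched. At least 1 window of 4 members, ANKRD1, AMOTL2, YAP1 and AJUBA, held the element, and 4 of the 12 windows did. Over all genes it was held by 4175 of 35116 windows, or 11.9%. A window each of ANKRD1 and AMOTL2 is shown because these were the members with the largest changes in KYSE-410. The ANKRD1 window (chr10:90921088-90921337, minus strand) holds the element at 220 and 128 bases before the start, and the AMOTL2 window (chr3:134374448-134374697, minus strand) holds it at 69. The other AMOTL2 window (chr3:134375418-134375667, minus strand) and the LATS2 window held none. Capitals mark the element, each sequence reads 5′ to 3′, and a match of letters is a description and not a shown binding site.
ANKRD1: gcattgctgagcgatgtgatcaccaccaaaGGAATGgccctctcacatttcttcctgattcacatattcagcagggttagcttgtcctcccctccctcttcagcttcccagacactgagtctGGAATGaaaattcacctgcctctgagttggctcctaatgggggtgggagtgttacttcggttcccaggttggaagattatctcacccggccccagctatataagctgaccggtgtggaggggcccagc
AMOTL2: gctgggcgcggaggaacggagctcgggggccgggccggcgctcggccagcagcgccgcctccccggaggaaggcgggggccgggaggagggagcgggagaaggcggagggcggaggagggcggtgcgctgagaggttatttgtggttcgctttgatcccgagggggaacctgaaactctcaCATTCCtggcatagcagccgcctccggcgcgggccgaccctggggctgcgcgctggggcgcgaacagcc

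The 10 libraries listed 26636 to 28623 genes above 0. The deposited values are CPM, counts scaled to a common library total, and their smallest steps place each library at a scaled total of about 20 M, so the depth before that scaling is not known from them. INPPL1 had 44.7, 37.3 and 39.1 CPM in KYSE-410 with siSHIP2 (37.4% of the siCT mean) and 107, 108 and 109 CPM with siCT. In KYSE-30 it had 23.2 and 24.5 CPM with siSHIP2 (62.8% of the siCT mean) and 39.9 and 36.2 CPM with siCT, so siSHIP2 and siCT libraries did not overlap in either line. Of 8 squamous epithelial markers, CDH1, EPCAM and TP63 were well above a floor of 0.15 CPM (3 of the scaled counts) in all libraries. KRT14 reached at most 0.75 CPM in KYSE-410, and KRT5 reached at most 0.30 CPM in KYSE-30. The summed level of the 8 markers was 656 to 824 CPM in KYSE-410 with siSHIP2 and 1113 to 1173 CPM in KYSE-410 with siCT. In KYSE-30 it was 816 to 832 CPM with siSHIP2 and 885 to 956 CPM with siCT. CDH1 supplied most of these sums, and its siSHIP2 mean was 54.9% of the siCT mean in KYSE-410 and 90.3% in KYSE-30. By the same measure in KYSE-410, KRT5 and KRT6A were at 25.2% and 20.9%, SOX2 at 105% and the others at 88.6% to 97.1%. In KYSE-30, KRT14 and KRT6A were higher, at 137% and 125%, and KRT5 was near the floor. SOX2, TP63, DSG3 and EPCAM were lower there, at 39.9%, 67.4%, 78.7% and 91.5%. The 6 fibroblast markers summed to 92.1 to 98.4 CPM in KYSE-410 with siSHIP2 and to 106 to 128 CPM in KYSE-410 with siCT. LUM supplied most of this sum, while COL3A1 was at most 0.35 CPM, and LUM was at 0 in KYSE-30. COL1A1 went the other way in KYSE-410, at means of 14.2 CPM with siSHIP2 and 10.2 CPM with siCT, without overlap. In KYSE-30 the fibroblast sum was 5.997 to 6.493 CPM with siSHIP2 and 6.096 to 6.895 CPM with siCT, nearly all from COL1A1. The 3 endothelial markers summed to at most 1.25 CPM in KYSE-410. In KYSE-30 they summed to 3.046 to 3.498 CPM with siSHIP2 and 4.098 to 6.945 CPM with siCT. Of 3 leukocyte markers, PTPRC was at most 0.15 CPM and CD68 carried nearly all of the sum, which was 10.4 to 13.2 CPM in KYSE-410 with siSHIP2, 12.6 to 14.0 CPM in KYSE-410 with siCT, 19.9 and 22.03 CPM in KYSE-30 with siSHIP2 and 17.7 to 20.4 CPM in KYSE-30 with siCT. The part of these marker differences in the results was not tested. In such bulk libraries, fewer cells of a type and less RNA per cell cannot be told apart.

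In KYSE-410, the negative regulators LATS1, LATS2, AMOTL1 and AMOTL2, the target ANKRD1 and the coactivator gene YAP1 were higher with siSHIP2 than with siCT (YAP1 not after TMM scaling, another way of scaling the libraries), while TEAD4, WWTR1 and AJUBA were lower. The changes ran from 225% of the siCT mean for AMOTL2 down to 80.3% for TEAD4. In total 9 of the 10 members passed limma at a Benjamini-Hochberg adjusted p under 0.05, against 49.9% of the 20466 genes tested, with 6 higher (30.6% of all genes) and 3 lower (19.3%). The median log2 fold change of the members was 0.31, against 0.07 over all tested genes. All 10 members passed the filter on low values in every library, and all values below are CPM or differences of log2(CPM + 1).

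**Figure D1:**
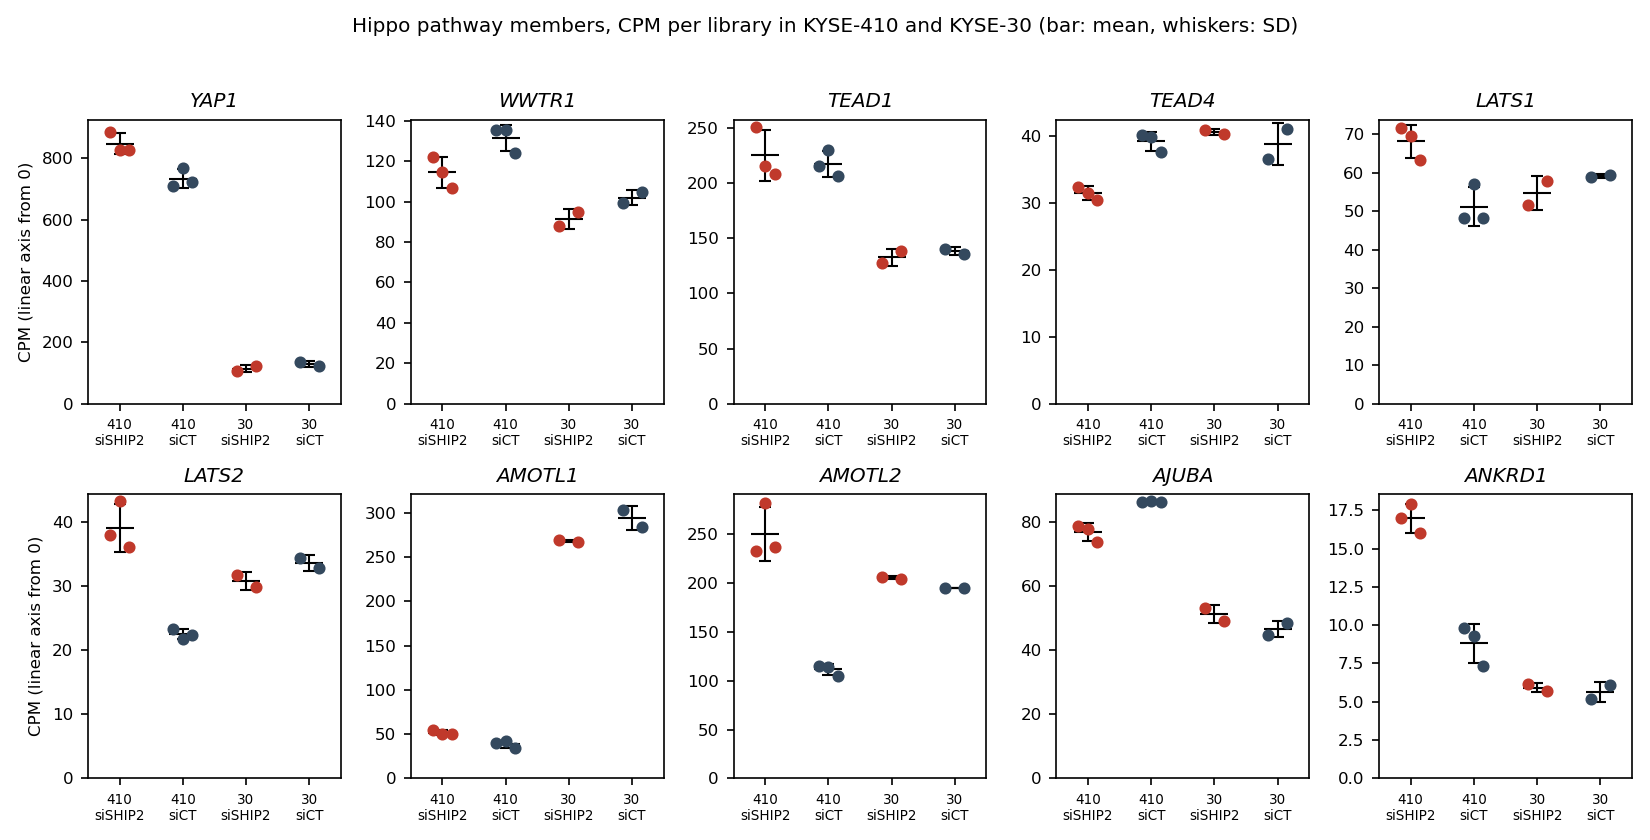
CPM of each of the 10 members in every library, with siSHIP2 left of siCT in each line; points are libraries, bars are group means and whiskers are SD. AMOTL2 in KYSE-410 lies at 233 to 282 CPM with siSHIP2 and 105 to 115 CPM with siCT.

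AMOTL2 (chr3:134355874-134375479, minus strand, GRCh38) had 233, 282 and 237 CPM in KYSE-410 with siSHIP2, against 115, 115 and 105 CPM with siCT. Every siSHIP2 library was above every siCT library by a wide margin, and the log2 fold change was 1.16 (SE 0.064, limma adjusted p = 2.61e-09). RPL39P5, a pseudogene that shares 187 exon bases with AMOTL2 on the same strand, had 28.5 to 37.1 CPM with siSHIP2 and 14.8 to 15.4 CPM with siCT in KYSE-410, and reads of the shared stretch cannot be told apart. The related gene AMOTL1 (chr11:94706431-94876753, plus strand) had 55.0, 50.2 and 49.8 CPM with siSHIP2 and 39.5, 42.0 and 33.9 CPM with siCT. AMOTL1 was higher without overlap, by a smaller log2 of 0.42 (SE 0.068, limma adjusted p = 8.49e-05).

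LATS2 (chr13:20973032-21061547, minus strand) had 37.9, 43.3 and 36.1 CPM in KYSE-410 with siSHIP2, against 23.3, 21.7 and 22.4 CPM with siCT. The siSHIP2 mean was 174% of the siCT mean, with a log2 fold change of 0.77 (SE 0.071, limma adjusted p = 3.07e-07). LATS1 (chr6:149658153-149718256, minus strand) had 71.5, 69.6 and 63.2 CPM with siSHIP2, against 48.1, 57.0 and 48.3 CPM with siCT. Both kinases were therefore higher in every siSHIP2 library, LATS1 by a log2 of 0.41 (SE 0.071, limma adjusted p = 0.000169). AJUBA (chr14:22971174-22982642, minus strand), which restrains these kinases, was lower, with 79.0, 78.0 and 73.9 CPM with siSHIP2 and 86.3, 86.6 and 86.3 CPM with siCT. Its log2 difference was -0.17 (SE 0.053, limma adjusted p = 0.0167), and without KYSE-410 siSHIP2 replicate 3 it was -0.14 (adjusted p = 0.0768, within a range of 0.000141 to 0.0768 over the alternatives).

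ANKRD1 (chr10:90912096-90921276, minus strand) had 17.0, 17.9 and 16.0 CPM in KYSE-410 with siSHIP2 and 9.79, 9.29 and 7.34 CPM with siCT. The levels were low but separate, and the siSHIP2 mean was 193% of the siCT mean (log2 fold change 0.88, SE 0.105, limma adjusted p = 4.23e-06).

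Of the coactivator genes in KYSE-410, WWTR1 was lower with siSHIP2, while YAP1 was higher in the deposited CPM but not called after TMM scaling. YAP1 (chr11:102110461-102233423, plus strand) had 887, 828 and 826 CPM with siSHIP2, against 710, 768 and 721 CPM with siCT. Its log2 fold change was 0.21 (SE 0.060, limma adjusted p = 0.00841), a call that depended on the scaling. Under TMM scaling it was 0.09 (adjusted p = 0.330, within 0.00460 to 0.330 over the alternatives), and it was also not called with relative log expression scaling, DESeq2 or edgeR. AP000942.2, an antisense gene that shares 628 exon bases with YAP1, had 193, 175 and 172 CPM with siSHIP2 and 151, 171 and 154 CPM with siCT in KYSE-410. Whether the counting used strand is not given in the sources used here, so reads of the stretch that YAP1 shares with this gene cannot be told apart. The same holds for antisense genes that share exon bases with WWTR1, AMOTL1 and LATS1, which had at most 6.80, 23.2 and 0.95 CPM. AL132780.3, which shares 50 exon bases with AJUBA on the same strand, had at most 15.4 CPM. Reads of that shared stretch cannot be told apart either. WWTR1 (chr3:149517235-149736714, minus strand) had 122, 115 and 107 CPM with siSHIP2 and 135, 135 and 124 CPM with siCT. It was lower in all siSHIP2 libraries (log2 -0.20, SE 0.058, limma adjusted p = 0.00937), and without KYSE-410 siSHIP2 replicate 3 it was -0.15 (adjusted p = 0.0587, within 5.91e-05 to 0.0587 over the alternatives).

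Of the DNA-binding partners, TEAD4 was lower in KYSE-410 and TEAD1 did not pass. TEAD4 (chr12:2959330-3040673, plus strand) had 32.5, 31.5 and 30.5 CPM with siSHIP2, against 40.2, 39.8 and 37.6 CPM with siCT (log2 -0.31, SE 0.061, limma adjusted p = 0.000515). TEAD1 (chr11:12674591-12944483, plus strand) had 251, 216 and 209 CPM with siSHIP2 and 216, 230 and 207 CPM with siCT. These libraries overlapped, and the 95% interval of the TEAD1 difference was -0.09 to 0.19 on the log2 scale, with the estimate at 0.05 in the deposited CPM and at -0.07 with TMM scaling.

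**Figure D2:**
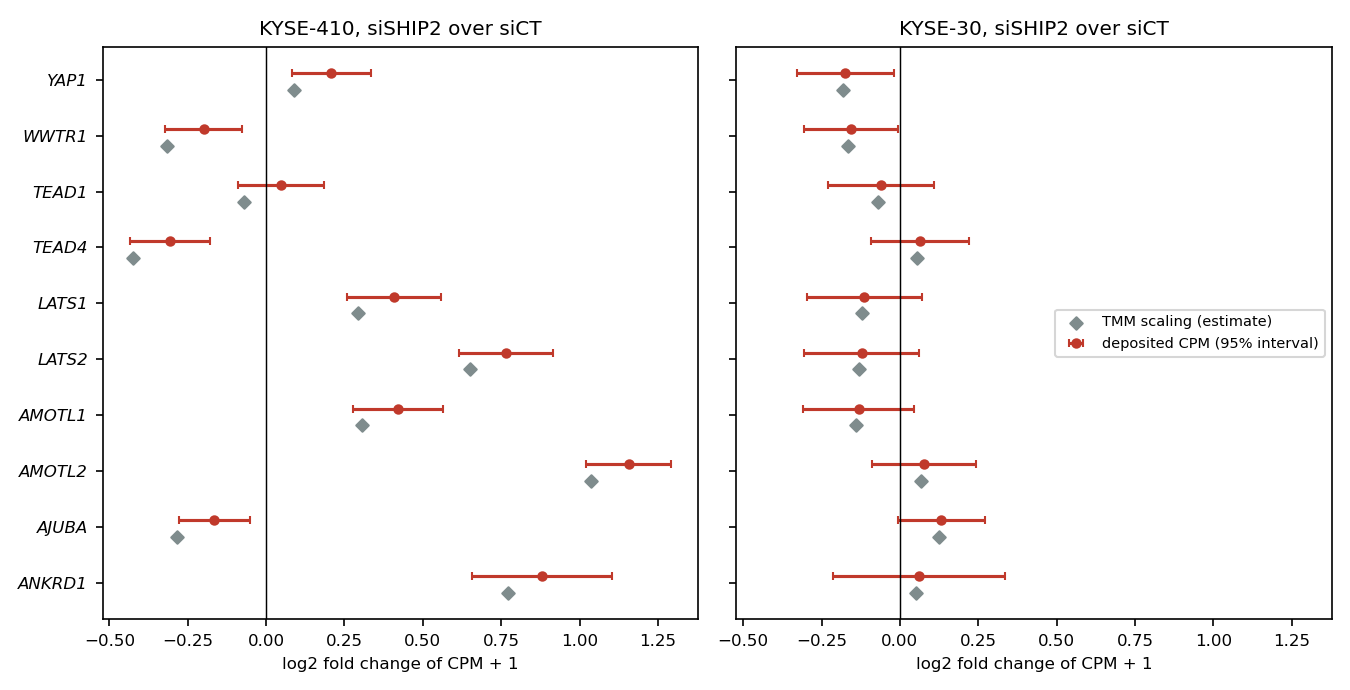
Log2 fold change of CPM + 1, siSHIP2 over siCT, for the 10 members in KYSE-410 (left) and KYSE-30 (right); circles with whiskers are limma estimates with 95% intervals, and diamonds are estimates after TMM scaling. AMOTL2 is farthest from 0 in KYSE-410 (1.16), and all diamonds in that panel lie to the left of their circles.

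TMM scaling moved the log2 fold changes of all genes in KYSE-410 by a median of -0.11, so that their median was -0.01 with TMM and 0.07 with the deposited CPM. The split of called genes was 6256 higher and 3949 lower with the deposited CPM, against 4086 higher and 5293 lower with TMM. With TMM scaling, 8 members were called, 5 higher and 3 lower. AMOTL2, ANKRD1, LATS2, AMOTL1 and LATS1 were higher by log2 values of 1.04, 0.77, 0.65, 0.30 and 0.29, and TEAD4, WWTR1 and AJUBA had log2 differences of -0.42, -0.32 and -0.28.

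In KYSE-30 none of the 10 members passed, against 2.36% of all tested genes (0.811% higher and 1.54% lower). That count was 0 in limma, edgeR and DESeq2. An unadjusted limma p under 0.05 was found for 2 members, and for 3653 of the 20466 tested genes. YAP1 had 106 and 123 CPM with siSHIP2, against 135 and 123 CPM with siCT, with overlapping libraries (log2 -0.17, 95% interval -0.33 to -0.02, limma adjusted p = 0.220). WWTR1 had 88.1 and 94.9 CPM with siSHIP2 and 99.3 and 105 CPM with siCT (log2 -0.16, limma adjusted p = 0.264). These coactivator genes were the members with an unadjusted p under 0.05, and neither held after adjustment.

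The genes that rose most in KYSE-410 showed small differences in KYSE-30. AMOTL2 had 207 and 205 CPM with siSHIP2 and 195 and 195 CPM with siCT, and the 95% interval of its log2 difference was -0.09 to 0.24. ANKRD1 had 6.14 and 5.70 CPM with siSHIP2 and 5.20 and 6.10 CPM with siCT. LATS2 had 31.8 and 29.8 CPM with siSHIP2, against 34.5 and 32.8 CPM with siCT, a log2 difference of -0.12. The KYSE-30 libraries of ANKRD1 overlapped, while those of AMOTL2 and LATS2 did not, and none of these differences passed the test. The other 5 members, TEAD1, TEAD4, LATS1, AMOTL1 and AJUBA, had log2 differences between -0.13 (AMOTL1) and 0.13 (AJUBA). The members' median was -0.09, against 0.00 over all tested genes.

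The difference between the lines was tested as an interaction, the siSHIP2 log2 fold change in KYSE-410 minus that in KYSE-30. It passed for 8 of the 10 members, 6 of them positive and 2 negative, against 32.4% of all tested genes (19.5% positive and 12.9% negative). With TMM scaling it passed for 7 members, 5 positive and 2 negative, and for 2463 positive and 3386 negative genes of all, against 3993 positive and 2634 negative genes with the deposited CPM. The median was 0.45 for the members and 0.06 for all genes. AMOTL2 (1.08, limma adjusted p = 3.31e-06), LATS2 (0.89, limma adjusted p = 3.28e-05) and ANKRD1 (0.82, limma adjusted p = 0.00140) had the largest positive differences. AMOTL1 (0.55) and LATS1 (0.52) followed at limma adjusted p of 0.00103 and 0.00217, and TEAD4 was negative (-0.37, limma adjusted p = 0.00733).

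The interactions of YAP1 and AJUBA were not called under every alternative. YAP1 differed by 0.38 (limma adjusted p = 0.00563), but by 0.27 with TMM scaling (adjusted p = 0.0800), by 0.29 with relative log expression scaling (adjusted p = 0.0523) and by 0.28 without KYSE-30 siSHIP2 replicate 1 (adjusted p = 0.0554), within 0.00319 to 0.0800 over the alternatives. AJUBA differed by -0.30 (limma adjusted p = 0.0131), and by -0.24 without either KYSE-30 siCT replicate 1 or KYSE-30 siSHIP2 replicate 1 (adjusted p = 0.0584 and 0.0679, within 0.00147 to 0.0679). WWTR1 (-0.04, 95% interval -0.24 to 0.15, limma adjusted p = 0.760) and TEAD1 (0.11, 95% interval -0.11 to 0.33, limma adjusted p = 0.461) did not pass. WWTR1 thus had similar point estimates in the lines with the deposited CPM, -0.20 in KYSE-410 and -0.16 in KYSE-30. Over the alternatives, its difference between the lines ran from -0.15 to 0.01 and passed in 0 of 18.

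The list of other Hippo regulators held 36 further genes, of which 35 passed the filter and DCHS1 did not. In KYSE-410, 21 of the 35 were called, 15 higher and 6 lower, with a median of 0.10 (49.9% and 0.07 over all tested genes). With TMM scaling 24 were called, 12 in each direction, against 45.8% of all tested genes. The 4 called genes with the smallest adjusted p were TEAD2, VGLL3, VGLL4 and STK38L, all higher, while TEAD3 was not called (log2 -0.05). TEAD2 had 5.20, 5.40 and 5.39 CPM with siSHIP2, against 1.90, 1.55 and 1.70 CPM with siCT (log2 1.22, limma adjusted p = 9.42e-08), and its libraries did not overlap. VGLL3, a TEAD cofactor, had 85.0, 90.6 and 73.9 CPM with siSHIP2 and 40.9, 44.3 and 39.1 CPM with siCT (log2 0.99, limma adjusted p = 1.13e-07). VGLL4, which competes with YAP for TEAD, averaged 153 ± 4.71 CPM with siSHIP2 and 84.1 ± 2.32 CPM with siCT (SD, n = 3 each, log2 0.85, limma adjusted p = 2.00e-08). STK38L, a kinase related to LATS, rose by a log2 of 0.76 (limma adjusted p = 5.05e-07).

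The upstream kinase module was named after its values were seen. In KYSE-410, the MST1 kinase gene STK4 and the scaffold gene SAV1 rose with siSHIP2 by log2 values of 0.45 and 0.43, and MOB1B, which encodes a LATS cofactor, by 0.37. Its paralog MOB1A fell by 0.28. STK3, the MST2 kinase gene, was higher by 0.22 but was not called with TMM scaling. In KYSE-30 none of the 35 was called by limma, edgeR or DESeq2, against 2.36% of all tested genes by limma. An unadjusted limma p under 0.05 was found for 8 of the 35, and for 3653 of the 20466 tested genes. The interaction passed for 14 of the 35 (40%), 11 positive and 3 negative, against 32.4% of all tested genes (19.5% positive and 12.9% negative). That share was near the background. With TMM scaling it passed for 16 of the 35 (45.7%), 9 positive and 7 negative. The share over all tested genes was then 28.6%, with 2463 positive and 3386 negative genes. Among the 14 were TEAD2 (1.19), VGLL3 (1.13), VGLL4 (0.81) and, in the other direction, WWC1 (-0.58), the gene of the scaffold KIBRA. WWC1 had 150, 123 and 130 CPM in KYSE-410 with siSHIP2 and 184, 187 and 172 CPM with siCT, and in KYSE-30 it had 207 and 192 CPM with siSHIP2 and 174 and 187 CPM with siCT.

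**Figure D3:**
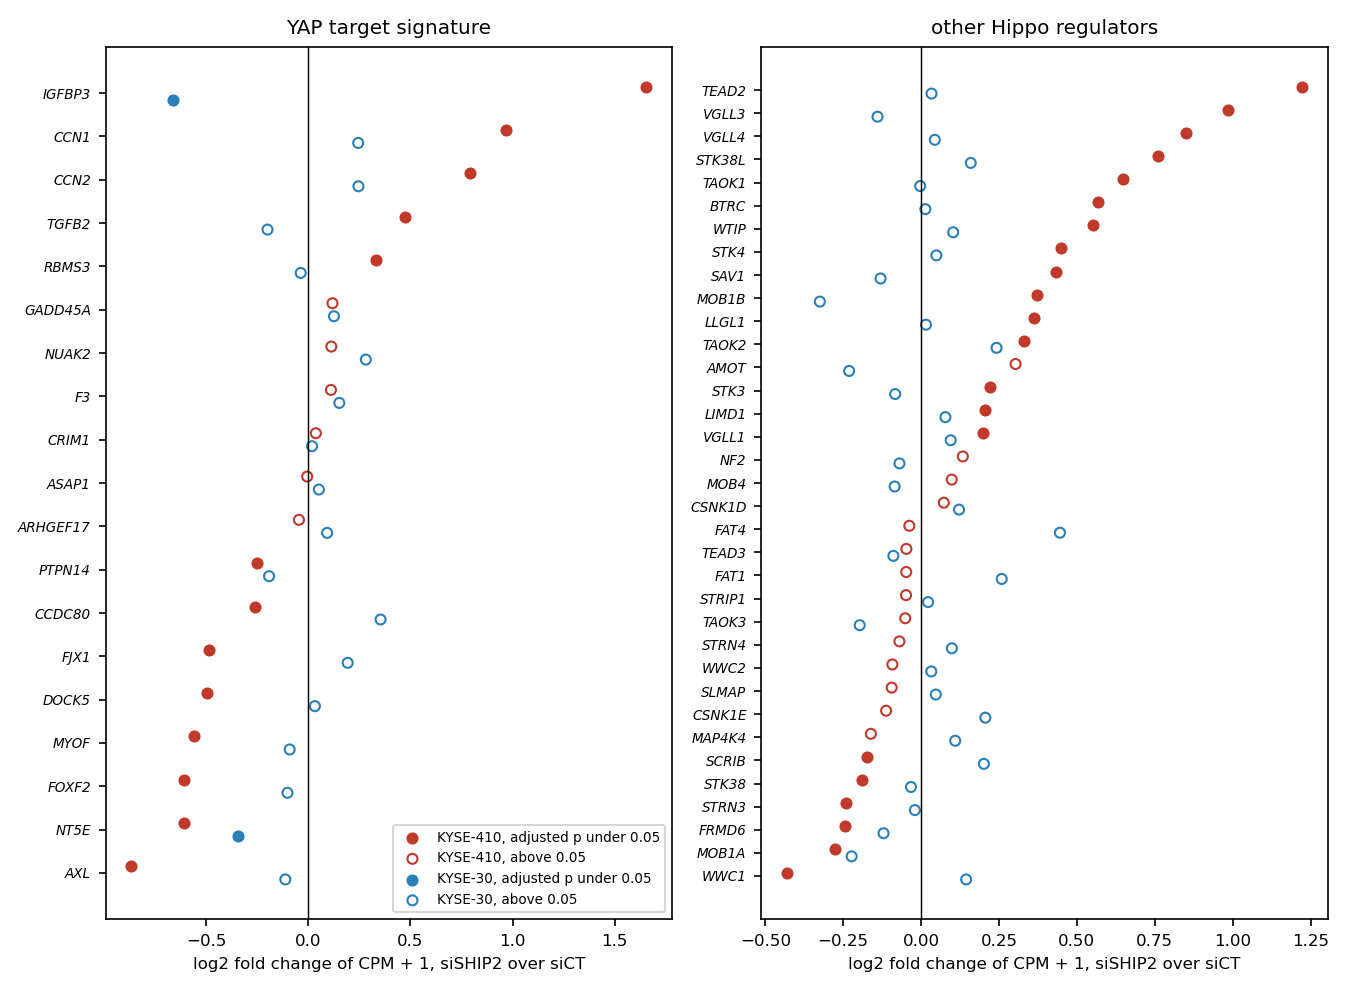
Log2 fold change of CPM + 1, siSHIP2 over siCT, of each gene of the YAP target signature (left) and each other Hippo regulator tested (right), in KYSE-410 (red) and in KYSE-30 (blue); filled points passed limma at an adjusted p under 0.05. In KYSE-410 the called signature genes lie on both sides of 0, 5 higher and 8 lower, with the members left out.

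A published signature of YAP targets, taken without its 3 genes that are members here, divided in direction. Its counts thus leave out ANKRD1, AMOTL2 and LATS2, the members known as YAP targets. Each of these was called higher in KYSE-410, by log2 values of 0.88, 1.16 and 0.77. In KYSE-410, 13 of the 19 genes were called, 5 higher and 8 lower, with a median of -0.01 (49.9% and 0.07 over all tested genes). IGFBP3, which encodes a binding protein of insulin-like growth factors, had 74.7, 66.1 and 84.7 CPM with siSHIP2, against 20.1, 25.5 and 23.8 CPM with siCT (log2 1.66, limma adjusted p = 2.44e-08). CCN1, a secreted matricellular protein gene listed as CYR61, had 117, 153 and 128 CPM with siSHIP2 and 75.7, 64.6 and 61.5 CPM with siCT (log2 0.97, limma adjusted p = 5.99e-07). CCN2, listed as CTGF, rose by 0.79 (limma adjusted p = 7.02e-06). Thus CCN1, CCN2 and the member ANKRD1, which are often read together as YAP targets, were each higher with siSHIP2 in KYSE-410.

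Other signature genes fell in KYSE-410. AXL, a receptor tyrosine kinase gene, had 27.0, 18.6 and 21.9 CPM with siSHIP2, against 50.7, 39.0 and 35.8 CPM with siCT (log2 -0.87, limma adjusted p = 1.86e-05). NT5E, which encodes the ectonucleotidase CD73, had 90.1, 91.8 and 82.3 CPM with siSHIP2 and 152, 126 and 128 CPM with siCT (log2 -0.61, limma adjusted p = 3.00e-06). Both genes were lower in every siSHIP2 library. In KYSE-30, 2 of the 19 genes were called, both lower, against 2.36% of all tested genes (0.811% higher and 1.54% lower). IGFBP3 had 75.4 and 89.1 CPM with siSHIP2 and 155 and 109 CPM with siCT (log2 -0.66, limma adjusted p = 0.0282), and NT5E was lower by a log2 of -0.35 (limma adjusted p = 0.0467), which did not pass with TMM scaling. Neither passed with no filter on low values, with KYSE-30 fitted alone, with the replicate block, or without KYSE-30 siCT replicate 1, siSHIP2 replicate 1 or siSHIP2 replicate 2. The response of IGFBP3 differed between the lines, with an interaction of 2.32 (limma adjusted p = 7.74e-07). CCN1 and CCN2 had KYSE-30 log2 differences of 0.24 and 0.25 (limma adjusted p = 0.286 and 0.306).

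The lines differed in their levels of the members with siCT alone. Comparing KYSE-410 with KYSE-30, 9 of the 10 members were called, 5 higher and 4 lower, against 75.9% of all tested genes (37.2% higher and 38.7% lower). YAP1 averaged 733 ± 30.4 CPM in KYSE-410 with siCT (SD, n = 3) and 129 ± 8.75 CPM in KYSE-30 with siCT (SD, n = 2), a ratio of 5.68 (log2 2.50). AMOTL1 lay the other way, at 38.4 ± 4.14 CPM in KYSE-410 and 294 ± 13.3 CPM in KYSE-30, a ratio of 0.131 (log2 -2.91). The remaining called members differed less, with log2 values of 0.87 for AJUBA, 0.65 for TEAD1, 0.56 for ANKRD1, 0.36 for WWTR1, -0.56 for LATS2 and -0.80 for AMOTL2. LATS1 was lower in KYSE-410 by a log2 of -0.21 (limma adjusted p = 0.0245), but it passed in 9 of 18 alternatives, with an adjusted p of 0.00323 to 0.226. TEAD4 did not pass (0.02, limma adjusted p = 0.848).

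LATS1, LATS2 and AMOTL2, which were lower in KYSE-410 than in KYSE-30 with siCT, had a mean above the KYSE-30 mean when both lines carried siSHIP2. The ratio of KYSE-410 to KYSE-30 was 1.22 with siSHIP2 and 0.572 with siCT for AMOTL2. It was 1.27 with siSHIP2 and 0.669 with siCT for LATS2, and 1.25 with siSHIP2 and 0.865 with siCT for LATS1. For ANKRD1, which was already higher in KYSE-410, the ratio was 2.87 with siSHIP2 and 1.56 with siCT. These ratios restate the interaction above and share its libraries. In the signature, 18 of the 19 genes differed between the lines with siCT, 6 higher and 12 lower in KYSE-410 (median -0.81, against -0.02 over all tested genes), among them AXL (log2 -4.05), the kinase gene NUAK2 (-4.38), the coagulation factor gene F3 (-2.59) and CCDC80 (2.67). Of the 35 other regulators 27 differed (77.1%, close to the 75.9% of all tested genes), 12 higher and 15 lower, among them the polarity gene LLGL1 (-2.64) and VGLL3 (2.32).

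The balance between related members was compared per kilobase of exon within each library, a ratio that does not depend on how libraries are scaled. YAP1 exceeded WWTR1 by a mean ratio of 9.89 in KYSE-410 with siSHIP2 and 7.45 with siCT, against 1.67 in KYSE-30 with siSHIP2 and 1.69 with siCT. In KYSE-410 the 3 siSHIP2 libraries, at 9.69, 9.66 and 10.3, lay above the 3 siCT libraries, at 7.01, 7.58 and 7.76. The ratio of TEAD1 to TEAD4 was 1.58 in KYSE-410 with siSHIP2 and 1.23 with siCT, and 0.723 in KYSE-30 with siSHIP2 and 0.791 with siCT. By this measure TEAD1 was the higher in KYSE-410 and TEAD4 in KYSE-30. That order depends on the exon lengths used, 10.279 kb for TEAD1 and 2.272 kb for TEAD4, which pool all annotated exons of a gene. By CPM alone TEAD1 was above TEAD4 in KYSE-30 too, at means of 138 and 38.8 CPM with siCT. Which exons were expressed was not tested. The ratio of AMOTL1 to AMOTL2 was 0.124 in KYSE-410 with siSHIP2 and 0.205 with siCT, and 0.778 in KYSE-30 with siSHIP2 and 0.899 with siCT. The ratio of LATS1 to LATS2 was 1.13 in KYSE-410 with siSHIP2 and 1.47 with siCT, and about equal in KYSE-30, at 1.15 with siSHIP2 and 1.14 with siCT. In KYSE-410 no siSHIP2 library overlapped a siCT library in any of these 4 ratios. In KYSE-30 the AMOTL1 to AMOTL2 ratio did not overlap either, at 0.776 and 0.780 with siSHIP2 and 0.929 and 0.870 with siCT. The other ratios overlapped in KYSE-30. How often the ratios of other gene pairs separate was not tested.

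**Figure D4:**
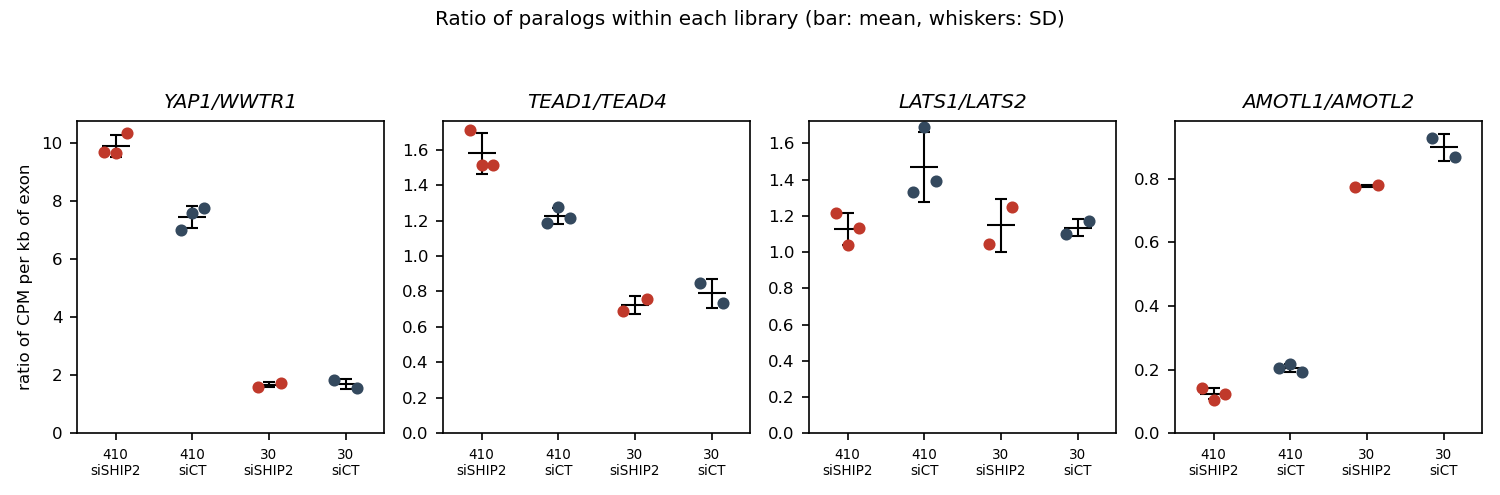
Ratio of CPM per kilobase of exon between related members within each library, with siSHIP2 left of siCT in each line; points are libraries, bars are means and whiskers are SD, and each panel has its own axis from 0. The YAP1 to WWTR1 ratio is 9.89 in KYSE-410 with siSHIP2 and 7.45 with siCT, and under 2 in all KYSE-30 libraries.

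Among 16884 genes with a mean of at least 1 CPM, those most like YAP1 over the 10 libraries, by Pearson correlation of log2(CPM + 1), were GATA3, NR1D2 and POF1B (each r = 0.999). The 2 lines and 2 siRNAs are shared by all these points, and 1507 genes had r above 0.98 with YAP1. For ANKRD1, the most alike were PROX1 (r = 0.995), USP11 (r = 0.994) and TJP1 (r = 0.991), and 37 genes were above 0.98. PROX1 had 8.40, 10.6 and 8.09 CPM in KYSE-410 with siSHIP2 and 1.90, 1.60 and 0.849 CPM with siCT, and was listed at 0 in all KYSE-30 libraries. TJP1, which encodes the tight junction protein ZO-1, had 368, 366 and 335 CPM in KYSE-410 with siSHIP2, against 257, 272 and 241 CPM with siCT. In KYSE-30, TJP1 had 207 and 214 CPM with siSHIP2 and 196 and 216 CPM with siCT.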

How the data were processed

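Total RNA of 10 libraries was analysed from 1 deposited table. Per the submitters' processing notes, STAR 2.5.3a, HTSeq and the build hg38 were used. The annotation, the strand setting and the scaling are not given in the sources used here. The values deposited by the authors are CPM, and 98.4% to 100% of them per library are whole multiples of 1 step within 0.001 CPM, which gives whole numbers scaled to about 20 M.

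A gene entered the test when 2 or more libraries reached 0.5 CPM. limma 3.58.1 (trend, R 4.3.3) was fitted to log2(CPM + 1) with 4 group means over all 10 libraries, and p-values were adjusted over all tested genes by the Benjamini-Hochberg method at 0.05. Differences on this scale understate changes of low genes. KYSE-30 shares the estimate of spread with KYSE-410. The plan allowed for a test on raw counts, which was not used as the main test because the unit is CPM. edgeR 4.0.16 and DESeq2 1.42.0 were run on the recovered whole numbers as alternatives only, since these are scaled and not the original reads. edgeR was added after the data were seen. Other alternatives were TMM and relative log expression scaling, no filter, a block for the replicate number, a pseudocount of 0.1, separate fits per line, and omission of each library. The procedure was tested on simulated data.

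The members and lists were chosen with earlier results of these data known. Named are all members, INPPL1, CCN1, CCN2, AXL, up to 4 called genes of each list per comparison with the smallest adjusted p, and the 3 genes most like YAP1 and ANKRD1. The kinase module genes STK3, STK4, SAV1, MOB1A and MOB1B and the signature genes MYOF, FJX1, FOXF2 and DOCK5 lie outside this rule and were named after their values were seen. The signature is a published set without its members here. Positions and exon lengths are from GENCODE 29 (GRCh38), and figures and sequences were made with Python 3.11.15, pandas 2.3.3, numpy 2.4.6 and matplotlib 3.10.9.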

Additional observations from a re-analysis of the deposited data

Results flagged for a closer look

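Results are listed here because the response to siSHIP2 differed between the lines by the limma interaction test (KYSE-410 minus KYSE-30, adjusted p under 0.05). Of the members, AMOTL2 differed by a log2 of 1.08, LATS2 by 0.89, ANKRD1 by 0.82, AMOTL1 by 0.55, LATS1 by 0.52, YAP1 by 0.38, AJUBA by -0.30 and TEAD4 by -0.37.

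Of the other regulators named, TEAD2 differed by 1.19, VGLL3 by 1.13, VGLL4 by 0.81 and WWC1 by -0.58. Of the signature genes named, IGFBP3 differed by 2.32, CCN1 by 0.72, TGFB2 by 0.67, CCN2 by 0.55 (not called with TMM scaling, at 0.44 and a limma adjusted p of 0.0501), CCDC80 by -0.62 and AXL by -0.75. Of the 19 signature genes, which leave out the members, 10 passed this test, 4 positive and 6 negative. The members known as YAP targets, ANKRD1, AMOTL2 and LATS2, each passed with a positive difference. Of all tested genes 32.4% passed, 19.5% positive and 12.9% negative. The other signature genes that passed were FJX1 (-0.68), DOCK5 (-0.53), FOXF2 (-0.50) and MYOF (-0.47). The TGFB2 mean with siSHIP2 was 140% of the siCT mean in KYSE-410 and 86.2% of it in KYSE-30. CCDC80 averaged 45.7 ± 5.72 CPM in KYSE-410 with siSHIP2 and 54.8 ± 3.15 CPM with siCT (SD, n = 3 each), and 10.2 ± 0.596 CPM in KYSE-30 with siSHIP2 and 7.77 ± 0.0346 CPM with siCT (SD, n = 2 each). INPPL1 was at 37.4% of its siCT mean in KYSE-410 with siSHIP2 and at 62.8% in KYSE-30 with siSHIP2, and the part of that in these differences was not tested.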

How the results depend on the processing

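Over 56 results and 1036 alternative values, 990 kept their side of the threshold or, for counts, stayed close. Of the rest, 26 counts moved, 20 calls were lost and 0 turned direction after being called. The 990 include uncalled values whose direction turned, such as TEAD1 in KYSE-410 (log2 -0.07 to 0.10 over the alternatives). The 20 lost calls were of YAP1, WWTR1 and AJUBA, described above, and of LATS1 between the lines. The number of members called with each library left out ranged from 7 to 9 in KYSE-410, 0 to 0 in KYSE-30, 6 to 8 for the interaction and 8 to 9 between the lines. The lowest value in KYSE-410 came without siSHIP2 replicate 3, where 44.9% of all tested genes were called. With 1 KYSE-410 library left out, the share of all tested genes called was 42.2% to 50.7% in KYSE-410. It was then 27.3% to 35.5% for the interaction and 72.7% to 76.8% between the lines. The lowest interaction count of members came without KYSE-30 siSHIP2 replicate 1, which left 1 library in its group. Fewer of all tested genes passed then too.

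In KYSE-30, the signature count of 2 was 1 with TMM scaling, 1 with relative log expression scaling, 1 with a pseudocount of 0.1, 0 with no filter (5 at an unadjusted limma p under 0.05), 0 with each line fitted alone (4 unadjusted) and 0 to 3 with 1 library left out. edgeR and DESeq2 each called 2. The count of other regulators was 0 to 1 with 1 library left out. All-gene calls in KYSE-30 numbered 482, and 160 with TMM, 78 with no filter and 0 with each line fitted alone (2834 at an unadjusted limma p under 0.05). In fits of both lines together, edgeR called 481 and DESeq2 called 615 at an adjusted p under 0.05. With 1 KYSE-410 library left out, limma called 213 to 812. Fewer still were called without KYSE-30 siSHIP2 replicate 1 or siCT replicate 1, each of which left 1 library in its group. The cause was not tested.

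Same-numbered libraries did not deviate together (correlations of 0.04, -0.16 and 0.09 in KYSE-410 and -0.12 in KYSE-30). With the replicate block, members called stayed at 9 in KYSE-410, 0 in KYSE-30, 8 for the interaction and 9 between the lines, the signature count in KYSE-30 was 0 (4 unadjusted), and all-gene calls there numbered 71. With KYSE-30 numbers crossed, chosen after seeing the data, these counts were 9, 0, 8, 9, 2 and 437. KYSE-30 had 2 libraries a group, and depth before scaling is unknown.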
